A study of Mus musculus with 6 samples.

Results

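The integrated stress response and its ATF4 targets were followed in mouse myocardium through 9 genes chosen by name: Atf4, Ddit3, Trib3, Asns, Chac1, Sesn2, Herpud1, Fgf21 and Gdf15. All 9 were found by their Ensembl identifiers among the 55401 genes of the complete files. RNA sequencing had been done on the myocardium of male wild-type (WT) mice with a time label of 8 weeks. Mice of one group had been injected with STZ (streptozotocin, a beta cell toxin used to induce diabetes), and mice of the other group had been injected with PBS, with 3 libraries in each group. No age, strain or starting point of the 8 weeks is labelled. Whether each library is a separate animal is not labelled either, and the p-values therefore speak of the spread among libraries, part of which may be technical.

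The integrated stress response begins with kinases that phosphorylate the translation initiation factor eIF2 under amino acid shortage, protein misfolding in the endoplasmic reticulum (ER), haem shortage, viral RNA or mitochondrial stress. General protein synthesis then falls, while translation of the transcription factor ATF4 increases, so the level of Atf4 RNA is only one part of its control. ATF4 induces the transcription factor CHOP (gene Ddit3), the pseudokinase Trib3, genes of amino acid supply such as Asns, and stress regulators such as Chac1 and Sesn2. Fgf21 and Gdf15 encode hormones that stressed cells release, and Herpud1 encodes an ER membrane protein that helps misfolded proteins leave for degradation. In heart muscle the response is known from mitochondrial disease and from protein folding stress.

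ATF4 binds DNA as a dimer with C/EBP proteins at a composite element, searched here as TGATGNAAN on both strands of RefSeq promoter windows (GRCm38.p6) that run from 250 bases before to 50 bases after each gene's start. All 9 genes had such a window, and 5 of them held a match, namely Trib3, Asns, Chac1, Herpud1 and Fgf21. Over all windows, 4.5% of 27025 genes held a match. The stretches around these matches are shown because they are a feature that the choice of genes by name did not use directly, although most of the genes are known as ATF4 targets. Capitals mark the match, which reads on the opposite strand in all but Asns, and in Herpud1 also a second element.
Trib3 (chr2:152344039-152344097, minus strand): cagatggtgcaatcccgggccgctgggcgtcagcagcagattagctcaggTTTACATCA
Asns (chr6:7693210-7693282, minus strand): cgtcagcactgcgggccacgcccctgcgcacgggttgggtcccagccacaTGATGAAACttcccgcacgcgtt
Chac1 (chr2:119350998-119351106, plus strand): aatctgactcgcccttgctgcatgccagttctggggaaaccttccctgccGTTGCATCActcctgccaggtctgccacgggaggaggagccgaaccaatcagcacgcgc
Herpud1 (chr8:94386266-94386428, plus strand): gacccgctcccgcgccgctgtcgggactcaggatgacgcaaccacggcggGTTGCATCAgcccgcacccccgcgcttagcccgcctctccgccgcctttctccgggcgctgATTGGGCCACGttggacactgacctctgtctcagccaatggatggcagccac
Fgf21 (chr7:45615572-45615680, minus strand): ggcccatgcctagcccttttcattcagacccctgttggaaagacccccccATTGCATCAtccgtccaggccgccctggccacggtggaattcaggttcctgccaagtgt
The matched 9 bases were the same in Chac1 and Herpud1, gttgcatca as read on the gene's strand. The Trib3 match lay 14 to 22 bases after the RefSeq start, and the Asns match 23 to 15 bases before it. The stricter form TGATGCAAT, which lies within the first motif, was found in Fgf21 alone and in 0.222% of all genes. The second element in capitals in Herpud1 is the ER stress element of type II (ERSE-II). It was searched for after the windows had been seen, and 0.0444% of all genes held it. The longer type I element (ERSE) matched in 0 of the 9 genes and in 0.137% of all genes, and the cyclic AMP element TGACGTCA in 0 of the 9 and in 2.03% of all. The short core CCACG, part of both ER elements, occurred in 6 of the 9 genes and in 35.5% of all. A match describes the letters only.

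Values were FPKM, fragment counts scaled by transcript length and library total, as deposited. The file of PBS replicate 3 listed 7711 genes (13.9%), among them Ddit3, Asns, Chac1 and Sesn2, so PBS replicates 1 and 2 were set against the 3 STZ libraries and PBS replicate 3 is given beside them where listed. The files give no fragment numbers. Depth was estimated very roughly from the values of short genes, at 19000000 to 23500000 fragments per complete library. It was sought only within a fixed range, so it could not come out far from these numbers. On that estimate about 30 to 170 fragments stood behind each value of Asns and at most about 3 behind those of Fgf21. Of 5 cardiomyocyte genes, Myh6 had 2219 to 2546 FPKM in STZ and 2925 and 3083 FPKM in PBS. The skeletal muscle myosins Myh1 and Myh4 lay at 0 to 0.01 FPKM. The cardiomyocyte genes differed in direction. Actc1 fell (limma adjusted p = 0.0282), and Myh6 lay below PBS without passing (limma adjusted p = 0.0994). Ryr2 averaged 14 FPKM in STZ and 32.2 FPKM in PBS (limma adjusted p = 0.101). Tnnt2 lay above PBS (limma adjusted p = 0.218), and Myl2 overlapped. In such bulk tissue, fewer cells of a type and less RNA per cell cannot be told apart. The atrial genes Myl7, Sln, Myl4 and Nppa summed to 961 to 3304 FPKM in STZ and to 302 and 1328 FPKM in PBS. Nppa made up most of each sum, with 2864, 876 and 1591 FPKM in STZ and 996 and 251 FPKM in PBS. Myl7 had 357, 73.7 and 0.28 FPKM in STZ replicates 1, 2 and 3. In PBS replicates 1, 2 and 3 Myl7 had 262, 37.9 and 0.21 FPKM. For each of these atrial genes the groups overlapped, so the sums do not show more atrial tissue in STZ. Of 6 neutrophil genes 3 rose, and all 6 summed to 41.9 to 57.8 FPKM in STZ against 3.64 and 8.22 FPKM in PBS. Of 5 fibroblast genes Col1a1 fell (limma adjusted p = 0.00806), while 3 lay above PBS replicates 1 and 2 without passing. Of 5 smooth muscle and pericyte genes Acta2 fell (limma adjusted p = 0.0221), while Pdgfrb lay above PBS without passing (limma adjusted p = 0.115). Of 4 adipocyte genes Cidea rose (limma adjusted p = 0.0169), and Adipoq, Plin1 and Ucp1 were under the filter. The erythroid genes Hba-a1, Hbb-bs and Alas2 summed to 182 to 520 FPKM in STZ, with the highest sum in STZ replicate 2, and to 161 and 174 FPKM in PBS. The part of these cell types in the results below was not tested.

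None of the 9 genes was called different between STZ and PBS hearts. By limma on log2(FPKM + 1) with Benjamini-Hochberg adjustment over 11556 genes, 0 of the 8 tested genes reached an adjusted p of 0.05, where 5.82% of all tested genes did (421 higher, or 3.64%, and 251 lower, or 2.17%). The higher genes were 62.6% of those calls, but 48.5% with libraries centred on their medians, 50.2% with quantile normalization and 73.8% as TPM. All calls numbered 24 without PBS replicate 1, 29 without PBS replicate 2, and 348, 392 and 398 without STZ replicates 1, 2 and 3. Unadjusted p lay under 0.05 for 3 of the 8 (Asns, Herpud1 and Gdf15), as for 26.6% of all genes. The libraries of the groups did not overlap for 4 of the 8, with Asns, Sesn2 and Herpud1 above and Gdf15 below PBS, and for 47.4% of all genes (28.7% above and 18.8% below). Fgf21 stayed under the filter of 1 FPKM in 2 libraries. Asns reached the filter through STZ libraries alone and Gdf15 through PBS libraries alone, so the filter itself favoured a difference in these 2 genes.

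**Figure D1:**
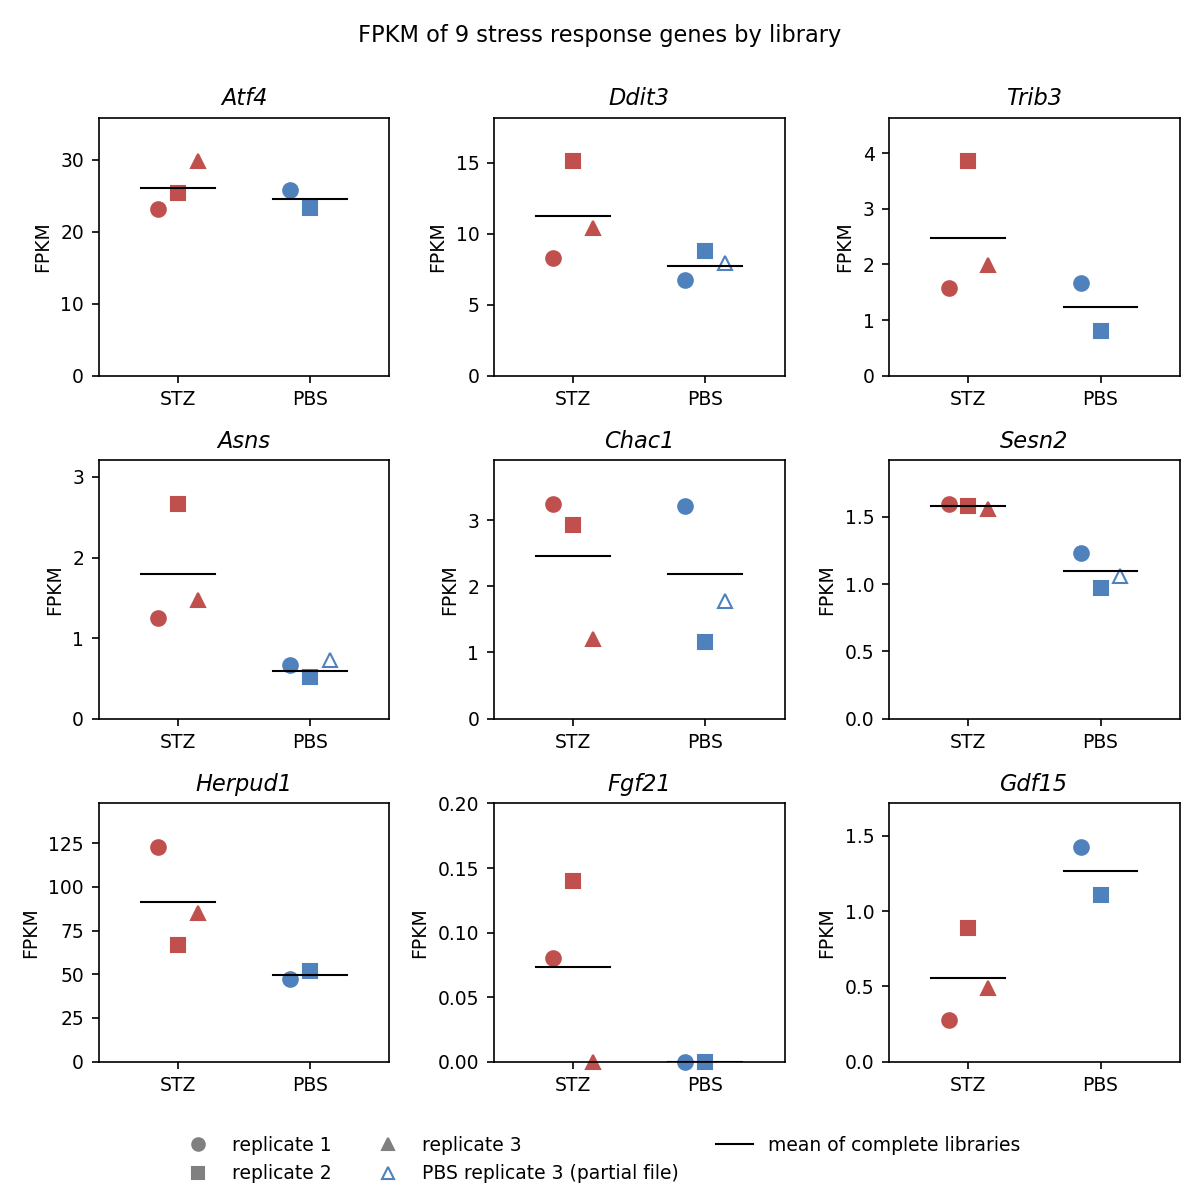
FPKM of each gene (vertical axes, each from 0) in STZ libraries (left, red) and PBS libraries (right, blue), with a marker shape per replicate number, an open triangle for PBS replicate 3 where its file lists the gene, and a line at the mean of the complete libraries. Asns, Sesn2 and Herpud1 lie higher and Gdf15 lies lower in every STZ library than in the PBS libraries, and the other groups overlap.

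Atf4 (ENSMUSG00000042406, chromosome 15, 80255184 to 80257541, GRCm38), the central transcription factor, had 23.2, 25.3 and 29.9 FPKM in STZ replicates 1, 2 and 3, against 25.8 and 23.3 FPKM in PBS replicates 1 and 2. The groups overlapped, and the STZ library of replicate 1 was the lowest of the 5. The log2 fold change was 0.08 ± 0.15 (SE, limma adjusted p = 0.757), with a 95% interval from -0.28 to 0.44. Its sign rested on 1 library, since without STZ replicate 3 it was -0.01. Atf4 RNA was among the more abundant, above 90.2% of tested genes in STZ and 89.9% in PBS.

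Ddit3 (ENSMUSG00000025408, chromosome 10, 127290774 to 127296288), which encodes the stress-induced transcription factor CHOP, had 8.28, 15.2 and 10.4 FPKM in STZ replicates 1, 2 and 3, against 6.75, 8.75 and 7.93 FPKM in PBS replicates 1, 2 and 3. STZ replicates 2 and 3 lay above all PBS libraries, while STZ replicate 1 lay within their range. The log2 fold change against PBS replicates 1 and 2 was 0.46 ± 0.25 (SE, limma adjusted p = 0.292). It was 0.24 without STZ replicate 2 and 0.29 without PBS replicate 1. A second identifier with the same symbol lies inside this gene and stood at 0 to 0.01 FPKM, and 4.7% of the exon length of Ddit3 overlaps Mars and Gm4189 on the opposite strand, so a small share of its reads is uncertain.

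Trib3 (ENSMUSG00000032715, chromosome 2, 152337422 to 152344032), a pseudokinase that ATF4 and CHOP induce, had 1.58, 3.87 and 1.99 FPKM in the STZ libraries, against 1.66 and 0.80 FPKM in PBS replicates 1 and 2. STZ replicate 1 fell between the PBS libraries and STZ replicate 2 stood highest. The mean was 2.02 times that in PBS, and the log2 fold change was 0.61 ± 0.31 (SE, limma adjusted p = 0.259). It was 0.33 without PBS replicate 2 and 0.34 without STZ replicate 2.

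Asns (ENSMUSG00000029752, chromosome 6, 7675169 to 7693254), the enzyme that makes asparagine, had 1.25, 2.67 and 1.47 FPKM in STZ replicates 1, 2 and 3, against 0.66, 0.52 and 0.73 FPKM in PBS replicates 1, 2 and 3. Every STZ library exceeded every PBS library, and STZ replicate 2 was the highest. It averaged 1.80 ± 0.764 FPKM in STZ (SD, n = 3) and 0.59 ± 0.099 FPKM in PBS replicates 1 and 2 (SD, n = 2), a ratio of 3.05. On the log2(FPKM + 1) scale, which understates changes of low genes, the fold change was 0.78 ± 0.23 (SE, limma adjusted p = 0.0988), with an interval from 0.22 to 1.34. With PBS replicate 3 added where listed, the limma adjusted p was 0.0556. In a fit limited to the 4824 tested genes of all 6 files it was 0.0271, so Asns passed there. That fit called 987 of its 4824 genes, and in it Asns again reached the filter through STZ libraries alone. Over all alternatives the adjusted p ran from 0.0271 to 0.358 and the log2 fold change from 0.57 to 1.39.

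Chac1 (ENSMUSG00000027313, chromosome 2, 119351229 to 119354381), an enzyme that degrades glutathione, had 3.25, 2.92 and 1.21 FPKM in STZ replicates 1, 2 and 3, against 3.22, 1.16 and 1.77 FPKM in PBS replicates 1, 2 and 3. Both groups spanned nearly the same range. The log2 fold change was 0.14 ± 0.38 (SE, limma adjusted p = 0.842). It was -0.34 without PBS replicate 2 but 0.62 without PBS replicate 1. It was -0.04 without STZ replicate 1, 0.02 without STZ replicate 2 and 0.44 without STZ replicate 3.

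Sesn2 (ENSMUSG00000028893, chromosome 4, 132492032 to 132510501), a leucine sensor that restrains the growth kinase complex mTORC1, had 1.60, 1.58 and 1.56 FPKM in STZ, against 1.23, 0.97 and 1.06 FPKM in PBS replicates 1, 2 and 3. All STZ libraries lay above all PBS libraries, and they differed among themselves by less than the PBS libraries did. The mean was 1.44 times that of PBS replicates 1 and 2, and on the log2 scale the difference was 0.30 ± 0.13 (SE, limma adjusted p = 0.205).

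Herpud1 (ENSMUSG00000031770, chromosome 8, 94386438 to 94395377), the ER degradation factor, had 123, 66.7 and 84.8 FPKM in STZ replicates 1, 2 and 3, against 47.2 and 51.9 FPKM in PBS replicates 1 and 2. Every STZ library was higher than both PBS libraries, but the STZ libraries also spread widely. The mean was 91.5 ± 28.7 FPKM in STZ (SD, n = 3) and 49.6 ± 3.33 FPKM in PBS (SD, n = 2), and the log2 fold change was 0.83 ± 0.25 (SE, limma adjusted p = 0.106, interval from 0.22 to 1.44). STZ replicate 1, the highest for Herpud1, was not the highest for Ddit3, Trib3 or Asns, which all peaked in STZ replicate 2. STZ replicate 1 also had the highest sum of the atrial genes, 3304 FPKM, and the most Myl7 (357 FPKM). PBS replicate 1, with 262 FPKM of Myl7, had the lowest Herpud1 value, 47.2 FPKM. STZ replicate 3, with 0.28 FPKM of Myl7, had 84.8 FPKM of Herpud1. A part of atrial tissue in the Herpud1 values was not tested.

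Gdf15 (ENSMUSG00000038508, chromosome 8, 70629393 to 70632456), a circulating stress hormone that lowers appetite through the receptor GFRAL of the brainstem, had 0.28, 0.89 and 0.49 FPKM in the STZ libraries, against 1.43 and 1.11 FPKM in PBS replicates 1 and 2. It was the one tested gene of the 8 with a negative difference, and each STZ value lay under both PBS values. The log2 fold change was -0.56 ± 0.20 (SE, limma adjusted p = 0.147, interval from -1.06 to -0.07). Without either PBS library it missed the filter.

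Fgf21 (ENSMUSG00000030827, chromosome 7, 45613886 to 45615490), a hormone best known from liver, was listed at 0.08, 0.14 and 0 FPKM in STZ replicates 1, 2 and 3, and at 0 FPKM in PBS replicates 1 and 2. On the rough estimate of depth these values stand for 1.6 and 3.1 fragments, so a difference was not detectable at this depth (two-sided exact permutation p = 0.4, where 3 against 2 libraries allow 0.1 at the least). Its co-receptor Klb and the GDF15 receptor Gfral were listed at 0 FPKM in all complete libraries, and Fgfr1, the receptor that KLB serves, was at 3.36 FPKM in STZ and 2.44 FPKM in PBS on average (limma adjusted p = 0.161). Ret, the co-receptor of GFRAL, was under the filter and not tested, at 0.11, 0.14 and 0.20 FPKM in STZ, against 0.97, 0.94 and 1.53 FPKM in PBS replicates 1, 2 and 3, so that its groups did not overlap. Fgfr4 lay at 0 to 0.17 FPKM in STZ and at 0 to 0.03 FPKM in PBS.

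**Figure D2:**
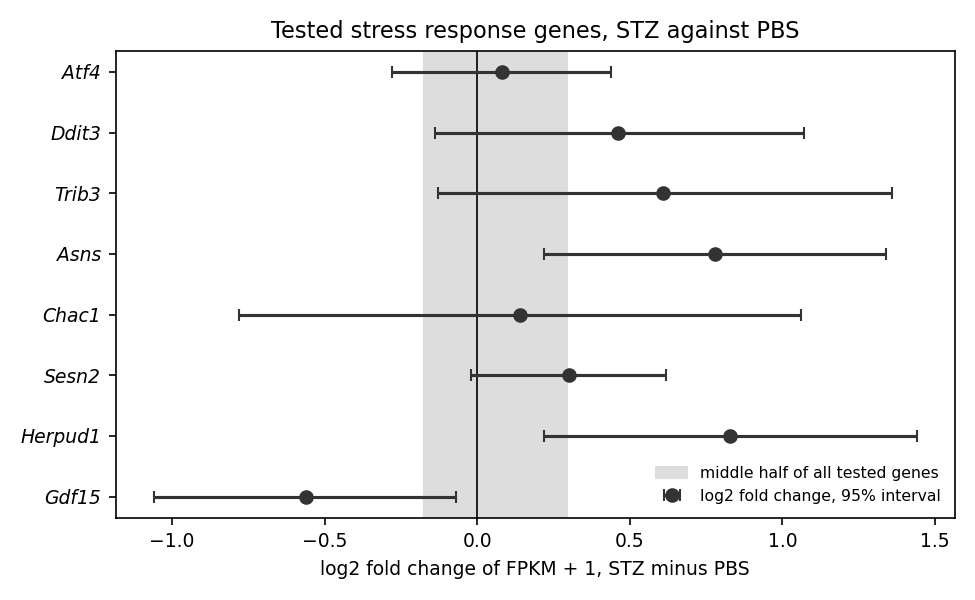
Log2 fold change of FPKM + 1, STZ minus PBS (horizontal axis), for the 8 tested genes, with 95% intervals from limma over 3 STZ and 2 PBS libraries; the grey band holds the middle 50% of all tested genes. The intervals of Asns and Herpud1 lie above 0 and that of Gdf15 below 0 before adjustment over 11556 genes, and the others include 0.

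FPKM is scaled per length, so levels can be ordered between genes. By mean FPKM in STZ the order was Herpud1, Atf4, Ddit3, Trib3, Chac1, Asns, Sesn2, Gdf15 and Fgf21. In PBS it was Herpud1, Atf4, Ddit3, Chac1, Gdf15, Trib3, Sesn2, Asns and Fgf21. The top 3 and the last kept their places, and none of them overlapped its neighbours. Asns in PBS (0.52 to 0.73 FPKM) and Gdf15 in STZ (0.28 to 0.89 FPKM) also stood apart from theirs. In STZ, Trib3 (1.58 to 3.87 FPKM), Chac1 (1.21 to 3.25 FPKM), Asns (1.25 to 2.67 FPKM) and Sesn2 (1.56 to 1.60 FPKM) overlapped. In PBS, Chac1 (1.16 to 3.22 FPKM), Gdf15 (1.11 to 1.43 FPKM), Trib3 (0.80 to 1.66 FPKM) and Sesn2 (0.97 to 1.23 FPKM) overlapped. Asns stood in place 6 in STZ and 8 in PBS, and Gdf15 in place 8 in STZ and 5 in PBS.

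Upstream of ATF4, none of 16 genes of the eIF2 kinases, eIF2, its exchange factor eIF2B and the phosphatase subunits passed in limma. Of these 0 had an unadjusted p under 0.05, where 26.6% of all tested genes did. Their median log2 fold change was -0.03, where that of all tested genes was 0.06. The kinase of amino acid shortage GCN2 (Eif2ak4) had 1.08, 1.02 and 1.57 FPKM in STZ and 0.86, 0.75 and 0.71 FPKM in PBS (limma adjusted p = 0.3). The ER kinase PERK (Eif2ak3) had 1.37, 1.73 and 1.75 FPKM in STZ and 1.41 and 1.86 FPKM in PBS (limma adjusted p = 0.977). All STZ libraries lay above PBS for GCN2, while the groups overlapped for PERK. The kinase HRI (Eif2ak1) lay below PBS replicates 1 and 2 but overlapped PBS replicate 3 (limma adjusted p = 0.362). The kinase PKR (Eif2ak2) overlapped (limma adjusted p = 0.508). In this list 4 of the 16 genes lay above PBS replicates 1 and 2 and 3 below, where 28.7% and 18.8% of all genes did so. The smallest p of this list belonged to the exchange factor subunit Eif2b4 (log2 fold change -0.42, limma adjusted p = 0.189), the phosphatase subunit Ppp1r15b (0.34, limma adjusted p = 0.198) and the separate initiation factor Eif2a (0.25, limma adjusted p = 0.239). RNA levels do not report the activity of these kinases.

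Targets of ATF4 in amino acid synthesis and one-carbon metabolism differed in direction. Of 13 listed genes 9 were tested, of which Mthfd2, Psat1 and Phgdh rose, Gpt2 fell and 5 did not pass, with a median log2 fold change of 0.06. For this list and those below, the shares over all tested genes were 3.64% higher and 2.17% lower. The 3 that rose lay under 1 FPKM in every PBS library listed and reached the filter through STZ libraries alone, so the filter favoured a rise in them. Among the genes that did not pass, Psph, the last enzyme of serine synthesis, was at 0.06 (limma adjusted p = 0.873). The mitochondrial enzymes Shmt2 and Aldh1l2 were at -0.06 (limma adjusted p = 0.786) and -0.02 (limma adjusted p = 0.96). Pck2 was at 0.43 (limma adjusted p = 0.126) and Aldh18a1 at -0.28 (limma adjusted p = 0.343). Mthfd1l and Pycr1 were under the filter and lay above every PBS library listed. Mthfd1l had 0.54, 0.51 and 0.42 FPKM in STZ, against 0.08 and 0.04 FPKM in PBS replicates 1 and 2. Also under the filter, Cth lay below PBS replicates 1 and 2 but overlapped PBS replicate 3, and Cbs overlapped. The mitochondrial folate enzyme Mthfd2 had 2.40, 2.03 and 3.13 FPKM in STZ, against 0.56, 0.51 and 0.40 FPKM in PBS replicates 1, 2 and 3 (log2 fold change 1.19 ± 0.17 SE, limma adjusted p = 0.0203). Psat1, which makes phosphoserine, had 2.11, 2.13 and 1.91 FPKM in STZ, against 0.48, 0.75 and 0.59 FPKM in PBS (0.92 ± 0.14, limma adjusted p = 0.0245). Phgdh, the enzyme that opens the serine pathway, averaged 1.13 ± 0.112 FPKM in STZ (SD, n = 3) and 0.22 ± 0.156 FPKM in PBS (SD, n = 2; limma adjusted p = 0.0408). With a pseudocount of 0.1 Phgdh did not pass (limma adjusted p = 0.0612). The alanine transaminase Gpt2 fell to 2.69 ± 0.108 FPKM in STZ (SD, n = 3), against 4.94 ± 0.424 FPKM in PBS (SD, n = 2; limma adjusted p = 0.0312), with groups that did not overlap. The rises numbered 0 without either PBS library, 1 without STZ replicate 1 or STZ replicate 2, and 2 without STZ replicate 3, and the fall of Gpt2 no longer passed without any 1 of the 5 libraries. With the filter at 5 FPKM none of the 4 was tested, and with no filter none passed.

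Of 9 amino acid transporter targets of ATF4 5 were tested, and Slc3a2 and Slc1a5 rose. Slc3a2, the heavy chain shared by several amino acid exchangers, had 16.7, 17.2 and 16.6 FPKM in STZ, against 8.12, 8.45 and 8.86 FPKM in PBS replicates 1, 2 and 3 (log2 fold change 0.94 ± 0.11 SE, limma adjusted p = 0.0139). The STZ libraries were nearly equal and lay far above all PBS libraries. The glutamine carrier Slc1a5 averaged 8.24 ± 1.08 FPKM in STZ (SD, n = 3) and 4.08 ± 0.219 FPKM in PBS (SD, n = 2; limma adjusted p = 0.0293). Slc7a5, a light chain that pairs with SLC3A2, had a log2 fold change of 0.37 (limma adjusted p = 0.185), and the cystine carrier Slc7a11 stood at 0.01 to 0.02 FPKM in every library. The list's median was 0.63. Without either PBS library 0 of these genes passed, and 1 passed without STZ replicate 1, without STZ replicate 3 or with no filter.

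Among 14 tested of 15 other stress genes downstream of ATF4 or CHOP, Eif4ebp1 rose and 13 did not pass, with a median of 0.28. Eif4ebp1, the repressor of cap-dependent translation 4E-BP1, had 52.2, 50.2 and 64.0 FPKM in STZ, against 17.5 and 18.0 FPKM in PBS replicates 1 and 2. The log2 fold change was 1.58 ± 0.15 SE (limma adjusted p = 0.00806), and the lowest STZ library lay well above the highest PBS library. The adjusted p reached 0.0856 when PBS replicate 1 was left out and 0.0741 when PBS replicate 2 was, and under the other alternatives it stayed under 0.05. Cebpb, a partner of ATF4 on DNA (0.61, limma adjusted p = 0.153), and Jdp2 (0.54, limma adjusted p = 0.136) did not pass. Atf3, an early stress factor, had 1.84, 7.53 and 2.02 FPKM in STZ and 3.70, 3.56 and 6.96 FPKM in PBS replicates 1, 2 and 3, so that the groups overlapped, with 1 high library in each. Of 13 genes that charge or export transfer RNA in the cytosol none passed in limma, and the median was -0.01. Of these 2 had an unadjusted p under 0.05, where 26.6% of all tested genes did. The smallest p were those of Nars (0.48, limma adjusted p = 0.114), Aars (-0.29, limma adjusted p = 0.175) and Sars (0.30, limma adjusted p = 0.2).

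**Figure D3:**
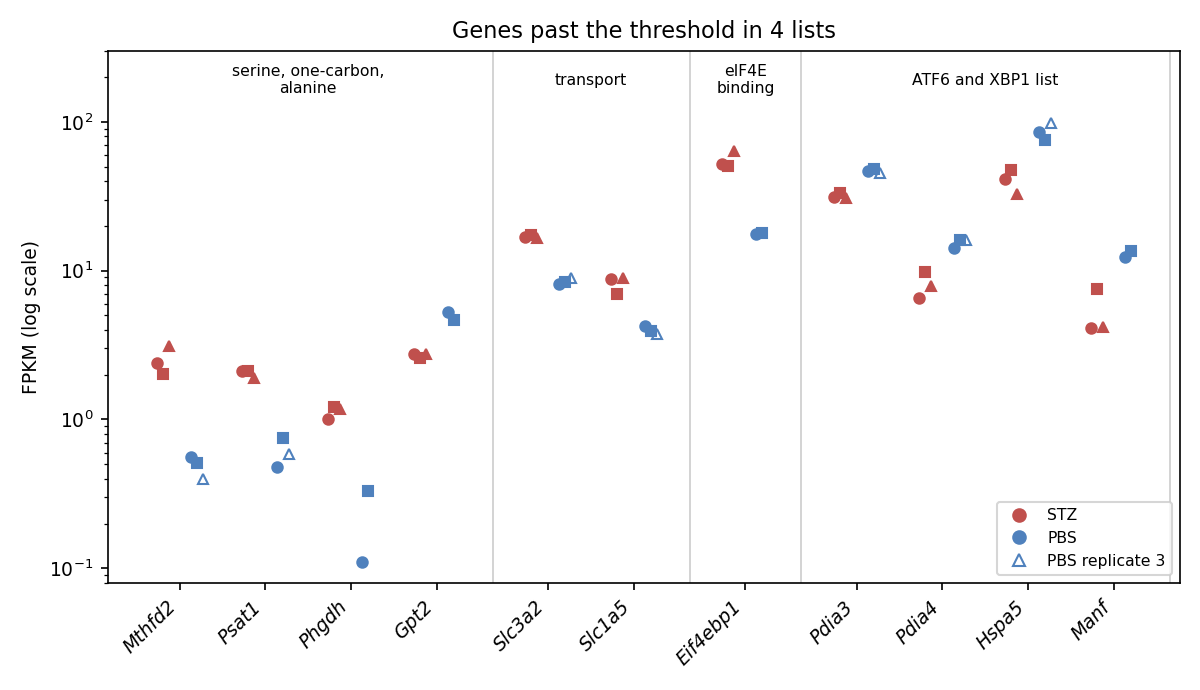
FPKM on a log axis of the 11 genes past the threshold in the lists of ATF4 targets and of the ATF6 and XBP1 arm, with STZ libraries (red) left of PBS libraries (blue) for each gene, replicate numbers by marker shape and PBS replicate 3 as an open triangle where listed. STZ values lie above PBS values for Mthfd2, Psat1, Phgdh, Slc3a2, Slc1a5 and Eif4ebp1, and below them for Gpt2 and the 4 ER genes.

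ER chaperones, which the other arms of the unfolded protein response (ATF6 and XBP1) control, included 4 that were lower in STZ hearts. Of 22 tested genes of that list 4 fell (Hspa5, Pdia3, Pdia4 and Manf), 0 rose and 18 did not pass, with a median of -0.34. The sign was negative in 21 and positive in 1 (Dnajb11), where 6585 of 11556 tested genes were positive. Hspa5, the main ER chaperone BiP, had 41.3, 47.8 and 32.7 FPKM in STZ, against 85.0, 75.7 and 98.03 FPKM in PBS replicates 1, 2 and 3 (log2 fold change -0.98 ± 0.18 SE, limma adjusted p = 0.0369). Manf, a secreted ER stress protein, had 4.13, 7.47 and 4.15 FPKM in STZ, against 12.4 and 13.5 FPKM in PBS (-1.20 ± 0.24, limma adjusted p = 0.0447). The disulfide isomerases Pdia3 (-0.56, limma adjusted p = 0.0447) and Pdia4 (-0.85, limma adjusted p = 0.0476) also fell. The STZ libraries lay below PBS for 11 of the 22 genes and above for 0, where 18.8% and 28.7% of all genes did so. Herpud1, whose window held the ERSE-II shown above, had the opposite sign to 21 of these 22 genes. The count of falls was 0 as TPM or with no filter, 0 without PBS replicate 1, PBS replicate 2 or STZ replicate 1, 6 without STZ replicate 2 and 1 without STZ replicate 3.

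In the list of mitochondrial stress sensing and chaperones, 0 of 9 genes passed in limma. Of these 2 had an unadjusted p under 0.05 (Dele1 and Hspe1), where 26.6% of all tested genes did. The sign was negative in 9 of 9 and the median was -0.25, where 6585 of 11556 tested genes were positive. In this list 1 gene fell after centring or quantile normalization, and 2 did when the values of PBS replicate 3 were added. The relay protein Dele1, which carries mitochondrial stress to the eIF2 kinase HRI, had 12.4, 10.1 and 9.72 FPKM in STZ, against 15.6, 14.8 and 14.9 FPKM in PBS replicates 1, 2 and 3 (limma adjusted p = 0.101). The co-chaperone Hspe1 (log2 fold change -0.52, limma adjusted p = 0.0649) and the chaperonin Hspd1 (-0.37, limma adjusted p = 0.211) had groups that did not overlap either. Among relatives of the 9 genes none of 6 tested passed in limma. Of these 4 had an unadjusted p under 0.05, where 26.6% of all tested genes did. Chac2, the constitutive relative of Chac1, averaged 4.51 ± 1.15 FPKM in STZ (SD, n = 3) and 8.95 ± 0.693 FPKM in PBS (SD, n = 2; limma adjusted p = 0.0508). Chac2 passed as a fall under the filter of 5 FPKM, after centring or quantile normalization, with robust eBayes, when STZ replicate 2 was left out, and in both fits that used PBS replicate 3, with adjusted p from 0.00886 to 0.256 over all alternatives. Trib1 (-0.38, limma adjusted p = 0.125) and Trib2 (0.40, limma adjusted p = 0.121), relatives of Trib3, differed in sign, and Trib2 passed as a rise in the fit on genes of all 6 files (limma adjusted p = 0.0326). Sesn1, a sestrin known as a target of p53 and FoxO, had 72.9, 34.6 and 44.7 FPKM in STZ, against 28.6 and 26.6 FPKM in PBS (limma adjusted p = 0.158), far above the level of Sesn2.

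Both hormones have other known regulators. Of 10 genes that the lipid receptor PPAR alpha controls, as it does Fgf21 in liver, 8 rose (among them Angptl4, Acot1, Pdk4, Ucp3, Acot2, Cpt1a and Cpt1b), with a median of 2.09. Angptl4, an inhibitor of lipoprotein lipase, had 25.5 ± 4.29 FPKM in STZ (SD, n = 3) and 1.47 ± 1.29 FPKM in PBS (SD, n = 2; limma adjusted p = 0.00806), while Fgf21 stayed near 0. The number was 2 without either PBS library, 6 without STZ replicate 1, 5 without STZ replicate 2 and 3 with no filter. Of 7 tested genes of the p53 response, a known regulator of Gdf15 and Sesn2, none rose and Ccng1 fell (log2 fold change -0.78, limma adjusted p = 0.0449). That fall did not pass as TPM or without either PBS library, STZ replicate 1 or STZ replicate 2. The cell cycle inhibitor Cdkn1a had a log2 fold change of 0.82 (limma adjusted p = 0.0806).

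Within the STZ group, Ddit3, Trib3, Asns and Gdf15 were highest in replicate 2, at 1.62, 2.17, 1.96 and 2.31 times the mean of STZ replicates 1 and 3. These were 4 of the 8 tested genes (50%), near the 40.2% of all tested genes that were highest in that library. The amino acid carrier Slc38a2, a target of ATF4, had 21.04, 45.01 and 30.14 FPKM in STZ replicates 1, 2 and 3, against 20.3, 18.7 and 24.2 FPKM in PBS replicates 1, 2 and 3. Of the 22 ER genes 20 were highest in STZ replicate 2, where 40.2% of all tested genes were. Sdf2l1, an ER chaperone partner, had 1.19, 5.12 and 2.10 FPKM in STZ, against 5.96, 7.84 and 9.49 FPKM in PBS. Hyou1, an ER chaperone, had 1.66, 4.11 and 1.75 FPKM in STZ, against 5.27 and 5.13 FPKM in PBS. STZ replicate 2 thus stood closest to PBS for Sdf2l1 and Hyou1 and farthest from PBS for Ddit3, Trib3 and Asns. For the chaperone Hsp90b1 it lay above PBS, with 60.4, 106 and 53.5 FPKM in STZ replicates 1, 2 and 3, against 72.4, 87.8 and 80.4 FPKM in PBS replicates 1, 2 and 3. It also had the most haemoglobin RNA of the 5 libraries, with 246 FPKM of Hba-a1, and the most RNA of all 10 PPAR alpha genes among the STZ libraries. Atf4 and Herpud1 were not highest in it.

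**Figure D4:**
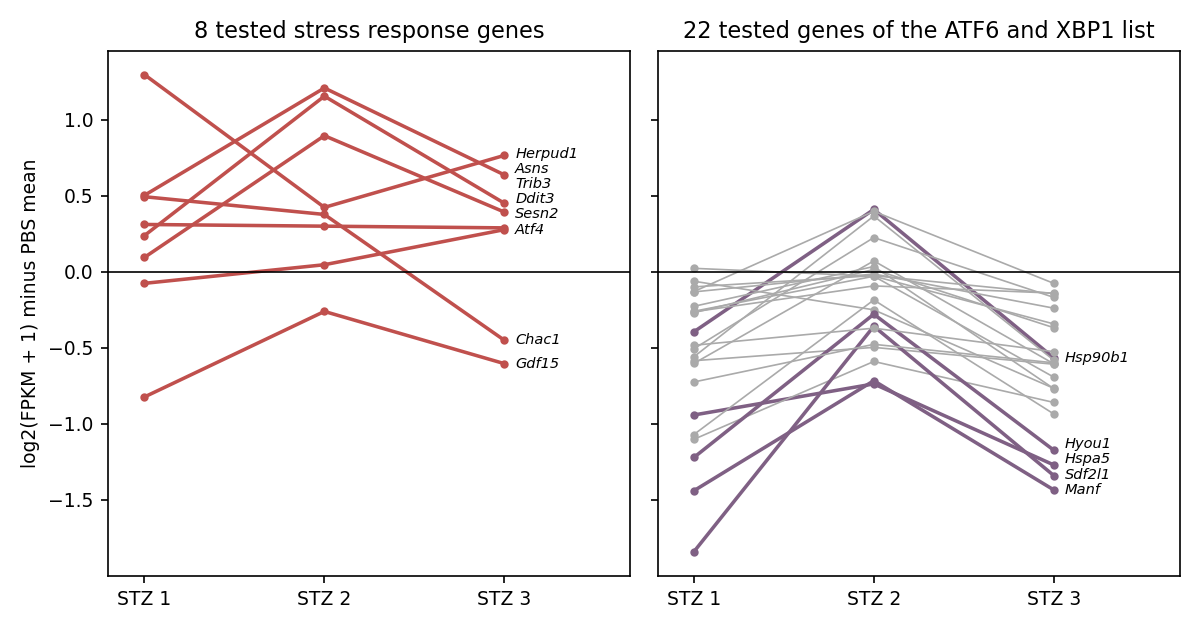
Log2(FPKM + 1) of each STZ library minus the mean of PBS replicates 1 and 2 (vertical axis), with a line joining the 3 STZ libraries of one gene, for the 8 tested genes (left) and for the 22 tested genes of the ATF6 and XBP1 list (right, 5 of them labelled and in purple). In STZ replicate 2 Asns, Trib3 and Ddit3 peak, and 20 of the 22 ER genes have their highest STZ value.

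For the 3 genes that varied most over the 5 complete libraries, the genes with the closest profile were sought by the root mean square distance of centred log2(FPKM + 1). Nearest to Trib3 were Fcna (distance 0.10), Ier2 (0.12) and Ms4a6d (0.14). Nearest to Herpud1 were Usp2 (0.09), Hmgb2 (0.09) and Sesn1 (0.10), which like it were highest in STZ replicate 1. Among the nearest to Asns were Lpcat3 and Mmp3 (0.08 each). With 5 libraries and 11556 genes, such closeness is a description only.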

How the data were processed

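RNA of myocardium was measured by sequencing of poly(A) RNA with a dUTP-marked strand, per the labels' protocols. FPKM for each gene, given to 2 decimals, is what the authors deposited, per the file headers. Per the submitters' processing notes, cutadapt 1.9, HISAT2 2.0.4 and StringTie 1.3.4d were used with GRCm38. No annotation release, strand setting or filter is given in the sources used here. Each value is relative to its library's total, of which mitochondrial genes made up 42.0% to 47.3%.

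Identifiers were matched to GENCODE M21 symbols (55141 of 55401 matched). Where a symbol had several, the one with the highest mean was used. A library whose file lists under 50% of the genes was left out of the fit. Genes that reached 1 FPKM in 2 or more fitted libraries were tested on log2(FPKM + 1) with limma 3.58.1 in R 4.3.3 (eBayes with trend, two-sided, no covariate), with Benjamini-Hochberg adjustment over all genes and a threshold of 0.05. The fit was tested on simulated data with 100 planted changes of each size. It recovered 56% of log2 changes of 1 and 86% of log2 changes of 2, and 2.7% of its calls were false. Changes were planted only in genes above a level that Trib3, Asns, Chac1, Sesn2 and Gdf15 did not reach. Recovery at their level was not measured. Tables were read and drawn with pandas 2.3.3, numpy 2.4.6 and matplotlib 3.10.9. The rough depth is the most common product of FPKM and exon length in short genes, taken as 1 fragment, so no counting interval is given. The product was sought only within a fixed range, and the most common bin held 46 to 69 genes per library. Whether the true value lies in that range was not tested.

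The genes and lists were chosen with earlier results of these data known. The text names the 9 genes, every gene past the threshold in each of the 11 other lists and, where fewer than 3 passed, the smallest p up to 3. Some genes that this rule names are not reported here. The other genes given, such as Psph, Shmt2, Aldh1l2, Pck2, Aldh18a1, Mthfd1l, Pycr1, Cth, Cbs, Ret, Fgfr4, Hsp90b1, Dnajb11, Eif2ak1, Eif2ak2, Eif2ak3, Eif2ak4, Slc7a11, Slc38a2, Atf3, Sdf2l1, Hyou1, Klb and Gfral, were chosen after their values were seen. Alternatives changed 1 choice at a time, except the fit on genes of all 6 files, which both adds PBS replicate 3 and limits the genes: pseudocounts of 0.1 and 0.5, no filter and 5 FPKM, centring, quantile normalization, TPM, rescaling without mitochondrial genes, eBayes without trend or robust, the replicate number as a block, each library left out, and PBS replicate 3 added or all 6 files on shared genes.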

Additional observations from a re-analysis of the deposited data

How the results depend on the processing

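The count of all genes past the threshold (672) was 81 with no filter, 64 with the replicate number as a block, 1169 with PBS replicate 3 added and 24 to 398 with 1 library left out. With 1 library left out, the log2 fold change of Atf4 ranged from -0.01 to 0.16 and that of Chac1 from -0.34 to 0.62. The fit on genes of all 6 files tested 4 of the 9 genes and called 987 of 4824 genes. Of the 9 genes 0 passed under every alternative except that fit, where 1 (Asns) did. With 1 library left out, the number was 0 throughout. Over the 46 genes named and tested, 789 of 793 recomputed values kept their sign. The 4 that did not were Atf4 at -0.01 with the replicate block and -0.01 without STZ replicate 3, and Chac1 at -0.34 without PBS replicate 2 and -0.04 without STZ replicate 1. The Atf4 values are the same estimate. No fitted PBS library has the number 3, so STZ replicate 3 has no weight in the fold changes with the block. Calls were less steady: 101 values no longer passed and 18 newly passed.

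With no filter, 26229 genes entered both the fit and the adjustment. There, 0 rises and 0 falls remained in amino acid synthesis, 1 rise among transporters and 0 falls in the ATF6 and XBP1 list. PPAR alpha genes kept 3 rises and p53 genes 0 falls. Which of the 2 steps cost the calls was not tested. With the filter at 5 FPKM, 0 rises and 0 falls were left in amino acid synthesis, whose 4 called genes were not tested. As TPM, 0 falls were left in the ATF6 and XBP1 list and 0 among p53 genes, and 0 falls among p53 genes after rescaling without mitochondrial genes; the cause was not tested. On genes of all 6 files, amino acid synthesis had 0 falls, the other ATF4 and CHOP targets 0 rises and PPAR alpha genes 5, since Gpt2, Eif4ebp1 and some PPAR alpha genes are not listed for PBS replicate 3.

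With 1 library left out, rises in amino acid synthesis ranged from 0 to 2 and falls were 0 throughout, transporter rises ranged from 0 to 2, rises of other ATF4 and CHOP targets from 0 to 1, falls in the ATF6 and XBP1 list from 0 to 6, rises of PPAR alpha genes from 2 to 8 and falls of p53 genes from 0 to 1. Groups shared replicate numbers 1 and 2 in the fit, and the labels do not say that a number marks a shared animal or day. Deviations from the group means correlated at 0.08 for replicate 1 and -0.03 for replicate 2. With 2 PBS libraries their deviations mirror each other, so these values cannot show whether a number is shared. The atrial gene Myl7 fell from replicate 1 to replicate 3 in both groups, at 357, 73.7 and 0.28 FPKM in STZ and 262, 37.9 and 0.21 FPKM in PBS. Sln and Myl4 fell in the same order where listed, and Nppa did not in STZ. A link of replicate numbers was not tested further. With the block, 1 residual degree of freedom per gene was left, and 0 rises and 0 falls passed in amino acid synthesis, 0 among transporters, 0 in the ATF6 and XBP1 list, 5 among PPAR alpha genes and 0 among p53 genes. On the rough estimate, depth limits Fgf21 most, with at most 3.1 fragments behind a value, and then Gdf15, with 11 to 50. Asns (30 to 170), Trib3 (36 to 190), Chac1 (38 to 110) and Sesn2 (71 to 130) were alike in this.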
